A study of Mus with 10 samples.

Results

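The genes described here are 10 that encode proteases of the secretory pathway and the cell surface, inhibitors of such proteases, and 1 of their surface substrates. They are *Furin*, *Pcsk7*, *Adam8*, *Adam10*, *Adam17*, *Adam19*, *Mmp9*, *Timp1*, *Timp2* and *Sdc4*, and they make up 10 of the 24564 genes in the deposited table. The genes were chosen by name with measured values in view, since *Furin*, *Mmp9* and *Sdc4* were already known to be lower in 1 of the genotypes compared. The values of these genes in that comparison are therefore given as a description. Where they are said to be among the called genes of the fit across the whole table, this only places them there and is no test of them.

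The study examined type 1 innate lymphoid cells (ILC1s), tissue-resident lymphocytes, of the mouse liver. It asked what the cells express with and without NKp46, the activating receptor that *Ncr1* encodes. Libraries were made from cells of C57BL/6 *Ncr1*+/+ mice, labelled Ncr1-WT, and of *Ncr1*gfp/gfp mice, labelled Ncr1-KO, with 5 libraries per genotype. The mice were 6 to 8 weeks old, and the cells were sequenced without stimulation. The methods speak of male or female mice, but all 10 libraries had the transcripts of males, with *Ddx3y*, a gene of the Y chromosome, at 132.9 to 170.5 CPM (counts scaled to library size with TMM normalization) and *Xist*, which females express, at no more than 1.09 CPM. In *Ncr1*gfp/gfp mice the reporter *gfp* replaces *Ncr1* on both alleles in every cell of the body, so that the loss is not limited to ILC1s. The sort took cells negative for lineage markers, positive for NK1.1 and CD49a and negative for CD49b. Wild-type ILC1s were further taken by an antibody against NKp46, and knockout ILC1s by GFP. Genotype and this step of the gate cannot be told apart. The study calls the sequenced samples RNA pools and does not say how many mice each library holds, so that the p-values below measure only the spread between these libraries, which may be technical.

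Furin and PC7, the product of *Pcsk7*, are proprotein convertases. They cut precursor proteins after basic residues in the Golgi and at the cell surface, and among their substrates are the inactive precursors of ADAM proteases and of several growth factors and receptors. ADAM10 and ADAM17 are sheddases, membrane-bound metalloproteases that release the outer parts of surface proteins, and ADAM8 and ADAM19 belong to the same family. MMP9 is a secreted gelatinase, and TIMP1 and TIMP2 inhibit metalloproteases. Syndecan-4, the product of *Sdc4*, is a transmembrane proteoglycan with heparan sulfate chains that takes part in adhesion and is itself shed.

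Libraries held 15796253 to 22623133 counts. *Ncr1*, the targeted gene, had between 1913 and 2144 CPM in *Ncr1*+/+ libraries. It had 340.0, 356, 141.5, 172 and 285 CPM in *Ncr1*gfp/gfp libraries 1 to 5, or 12.7% of the wild-type mean. The summed CPM of 7 ILC1 markers was between 3973 and 4271 in *Ncr1*gfp/gfp and between 3989 and 4251 in *Ncr1*+/+ libraries. Its members did not all move alike, since *Il7r* was lower in *Ncr1*gfp/gfp ILC1s, at a ratio of 0.509 (edgeR, adjusted p = 0.00773), and *Itga1*, which encodes the CD49a of the sort, was higher in every *Ncr1*gfp/gfp library, at a ratio of 1.25 (edgeR, adjusted p = 0.000481). The summed CPM of T-cell markers was higher in every *Ncr1*gfp/gfp library, at 632.5 to 835.1 against 461.3 to 579, mostly from *Cd3g*. A gene was called when its Benjamini-Hochberg adjusted p-value, from the quasi-likelihood test of edgeR over all tested genes, was under 0.05 and the fold change was above 1.5 or below 0.7. *Cd3g* itself was higher in every knockout library, at a ratio of 1.37 (edgeR, adjusted p = 0.00169), which did not pass the fold threshold. It had 442 to 793.4 CPM, whereas *Cd3e* had at most 38.75 CPM in a library, so that the sum mainly follows *Cd3g*. *Cd3e* and *Cd8a* of the T-cell list were among the genes called higher. The libraries of *Cd3d* and *Cd4* overlapped between the genotypes. *Cd8b1*, with at most 15 counts in a library, went the other way. Its highest level was 0.0529 CPM among knockout libraries and 0.841 CPM among wild-type ones. Whether these transcripts had a part in the results below was not tested.

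In *Ncr1*gfp/gfp ILC1s, *Furin*, *Mmp9* and *Sdc4* were lower than in *Ncr1*+/+ ILC1s, to 0.687, 0.616 and 0.568 of the wild-type level, and no library of 1 genotype overlapped the other. *Pcsk7*, *Adam10* and *Adam17* had ratios of 0.998, 0.987 and 1.00. *Adam8*, *Adam19* and *Timp2* had ratios between 0.943 and 1.08. *Timp1* was at or near 0 in every library. Of the 10 genes, 9 passed the filter on low counts. Among these, 3 were called lower and 0 higher, where 0.532% of all 11463 tested genes were called lower and 0.201% higher. In 3 of the 9 every *Ncr1*gfp/gfp library was below every *Ncr1*+/+ library, as in 1.82% of all tested genes, and in 0 of the 9 it was above, as in 1.28%. Because *Furin*, *Mmp9* and *Sdc4* were selected on this contrast, nothing is read from these shares. The log2 fold change was below 0 in 7 of the 9, with a median of -0.08. Of all 11463 tested genes 5648 were below 0, and their median was 0.0027. In cells sorted as a bulk population, fewer cells with a transcript and less of it per cell cannot be told apart.

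**Figure D1:**
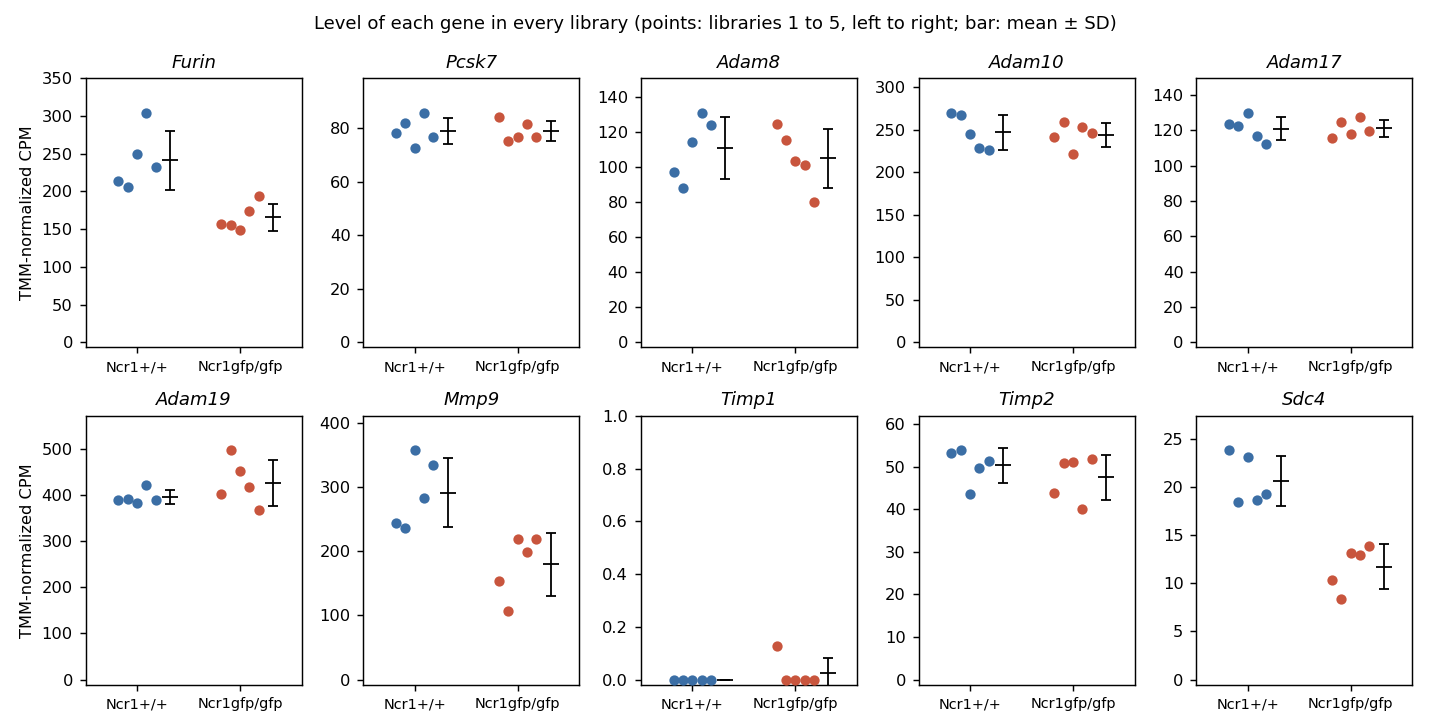
CPM of each of the 10 genes in every library, with 5 *Ncr1*+/+ and 5 *Ncr1*gfp/gfp libraries as points and the mean and SD of each genotype. The points of *Furin*, *Mmp9* and *Sdc4* do not overlap between the genotypes, whereas those of the other 7 do.

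*Furin* is found on chromosome 7 (87534080 to 87550322, minus strand), in the coordinates of the deposited table, whose genome build the table does not name. Its CPM was 214, 206, 250.2, 304 and 232 in *Ncr1*+/+ libraries 1 to 5. In *Ncr1*gfp/gfp libraries 1 to 5 it was 156, 156, 149.5, 174 and 194. The highest knockout library, the fifth, was below the lowest wild-type library, the second, and *Ncr1*+/+ library 4 stood highest of all. The mean was 241.3 ± 39.2 CPM in *Ncr1*+/+ and 165.9 ± 18.1 CPM in *Ncr1*gfp/gfp ILC1s (SD, n = 5 each). *Furin* differed by -0.54 on the log2 scale (SE 0.09), and the 95% interval of the ratio ran from 0.602 to 0.785. The ratio of *Furin* was thus just inside the limit of 0.7. Without *Ncr1*gfp/gfp library 3 or without *Ncr1*+/+ library 4, the log2 fold change was -0.51 or -0.44, which lies outside that limit, so that *Furin* was then not among the called genes. *Furin* shares chromosome 7 with *Ncr1*, which starts at 4289326 in the same table. *Adam8*, *Igf1r* and *Adam12*, described below, lie on chromosome 7 too, with log2 fold changes of -0.08, -1.02 and -1.68. That of *Adam12* did not pass the test (edgeR, adjusted p = 0.265). Whether the position on this chromosome had a part was not tested.

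*Pcsk7*, the other convertase, is found on chromosome 9 (45714652 to 45737805, plus strand). It had 78.2, 81.9, 72.75, 85.9 and 76.8 CPM in *Ncr1*+/+ libraries 1 to 5 and 84.3, 75.3, 76.9, 81.7 and 76.7 CPM in *Ncr1*gfp/gfp libraries 1 to 5. The genotypes overlapped throughout, with means of 79.1 ± 5.00 and 78.97 ± 3.82 CPM (SD, n = 5 each). The 95% interval of its ratio was 0.902 to 1.10. Part of *Pcsk7* overlaps *Rnf214*, on the opposite strand, by 343 bases, and reads there may be counted for either gene. *Furin* made up 49.3 ± 3.83% of the summed level per kilobase of exon of the convertase genes in *Ncr1*+/+ and 41.4 ± 2.86% in *Ncr1*gfp/gfp ILC1s (SD, n = 5 each). The share of *Pcsk7* was 17.4 ± 1.21% and 21.1 ± 1.06%, with its own level differing by less than its SD.

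The other convertase genes were examined for comparison. Of 7, 2 passed the filter on low counts. In edgeR 0 of these had an adjusted p-value under 0.05, as in DESeq2 and limma-voom, and 0 an unadjusted one. *Mbtps1*, which encodes the site-1 protease that activates membrane-bound transcription factors, had 156 ± 12.04 CPM in *Ncr1*+/+ and 145 ± 5.88 CPM in *Ncr1*gfp/gfp ILC1s (SD, n = 5 each). It differed by -0.10 on the log2 scale (edgeR, adjusted p = 0.593). *Pcsk4* was at 1.59 and 1.10 CPM. *Pcsk1* had 0 counts in every library, and *Pcsk5* did not exceed 0.0544 CPM.

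Of the sheddases, *Adam10*, whose product releases the outer part of Notch receptors, is found on chromosome 9 (70526789 to 70628036, plus strand). Its CPM was 269.6, 267, 244, 228 and 226 in *Ncr1*+/+ libraries 1 to 5 and 241, 258, 221, 253 and 246 in *Ncr1*gfp/gfp libraries 1 to 5. The lowest of all was a knockout library and the highest a wild-type one, but the ranges overlapped. *Adam10* differed by -0.02 on the log2 scale (SE 0.06), and the 95% interval of the ratio was 0.901 to 1.08.

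*Adam17* encodes the protease that releases tumor necrosis factor from the cell surface. It is found on chromosome 12 (21329370 to 21379493, minus strand). It had 123.3, 122.3, 129.9, 117 and 112.5 CPM in *Ncr1*+/+ libraries 1 to 5 and 115.5, 124.8, 118.1, 127.5 and 119.7 CPM in *Ncr1*gfp/gfp libraries 1 to 5. The knockout libraries all lay inside the wild-type range, and the 95% interval of the ratio was 0.915 to 1.10. *Adam17* had the smallest spread of the 9 tested genes in *Ncr1*gfp/gfp ILC1s, with a coefficient of variation of 4.07%, and 5.45% in *Ncr1*+/+ ILC1s. Counting error alone accounts for 2.09%.

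*Adam19* is found on chromosome 11 (45868004 to 45960849, plus strand), and *Adam8* on chromosome 7 (147164831 to 147178461, minus strand). *Adam19* had 389, 392, 382.5, 422 and 389 CPM in *Ncr1*+/+ libraries 1 to 5 and 401, 497, 452, 418 and 367 CPM in *Ncr1*gfp/gfp libraries 1 to 5. Knockout libraries 2 and 3 exceeded every wild-type library and the fifth was below all of them, and the coefficient of variation was 3.93% in *Ncr1*+/+ ILC1s and 11.7% in *Ncr1*gfp/gfp ILC1s. It differed by 0.11 on the log2 scale (SE 0.07), with a 95% interval of the ratio from 0.983 to 1.19. *Adam8* had 97.5, 88.3, 114.4, 131.1 and 124.1 CPM in *Ncr1*+/+ libraries 1 to 5 and 124.7, 115.6, 103.8, 101 and 79.97 CPM in *Ncr1*gfp/gfp libraries 1 to 5. Both genotypes spread by about the same amount, with coefficients of variation of 16.2% and 16.1%, and the 95% interval of the ratio was 0.807 to 1.11. Among the 4 ADAM genes the intervals of the ratio therefore allow a decrease to 0.807 or an increase to 1.19 at the widest.

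**Figure D2:**
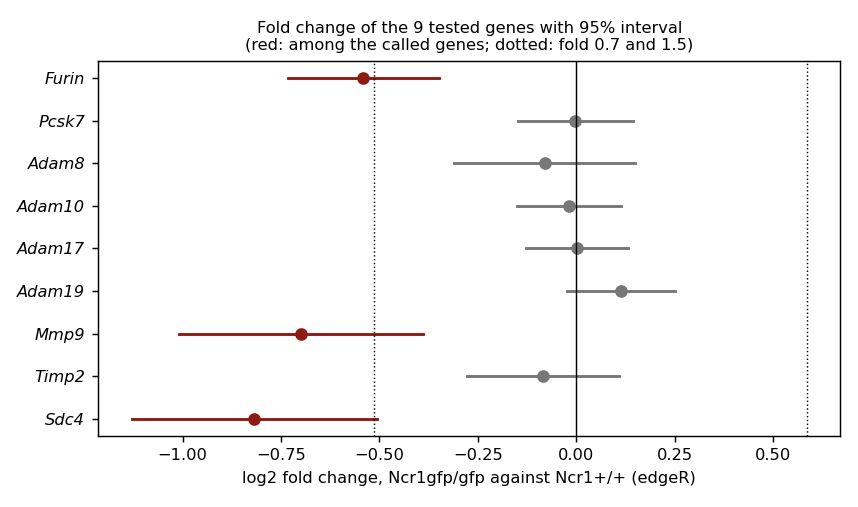
Log2 fold change of each tested gene of the set in *Ncr1*gfp/gfp against *Ncr1*+/+ ILC1s, from edgeR's fit across all tested genes, with its 95% interval. The intervals of *Furin*, *Mmp9* and *Sdc4*, at -0.54, -0.70 and -0.82, lie below 0, and those of the other 6 genes include 0.

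Of the remaining 9 ADAM genes, 3 passed the filter, and 0 had an adjusted p-value under 0.05 in edgeR, DESeq2 or limma-voom. At an unadjusted p-value under 0.05 there was 1 in edgeR, *Adam12*. *Adam9* had 16.02 ± 1.44 CPM in *Ncr1*+/+ and 17.4 ± 4.84 CPM in *Ncr1*gfp/gfp ILC1s (SD, n = 5 each), with an adjusted p of 0.854 in edgeR. *Adam12* itself had 1.78 and 0.553 CPM, a log2 fold change of -1.68 that did not pass the test (adjusted p = 0.265, edgeR). Of 19 ADAMTS genes, whose products are secreted relatives of the ADAMs, 4 passed the filter and 0 had an adjusted p-value under 0.05 by any of the same tools, against 1 at an unadjusted p-value in edgeR. This was *Adamts14*, which encodes a procollagen N-propeptidase and was the highest of them per kilobase, with 472 ± 24.8 CPM in *Ncr1*+/+ and 431 ± 23.5 CPM in *Ncr1*gfp/gfp ILC1s (SD, n = 5 each, adjusted p = 0.315, edgeR). Of 9 genes whose products bind sheddases or their carriers, such as the tetraspanin *Tspan14* and the iRhom-binding *Frmd8*, 7 passed the filter. Of these, 0 had an adjusted p-value under 0.05 in edgeR or limma-voom, 1 did in DESeq2, and 1, *Tspan15*, had an unadjusted one in edgeR. *Frmd8* had 148 and 141 CPM, and *Tspan14* had 112 and 114 CPM, in *Ncr1*+/+ and *Ncr1*gfp/gfp ILC1s.

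*Mmp9* is found on chromosome 2 (164773719 to 164781350, plus strand). Its CPM was 244, 236, 358, 283 and 335 in *Ncr1*+/+ libraries 1 to 5 and 153.5, 107.2, 218.6, 199.2 and 219.5 in *Ncr1*gfp/gfp libraries 1 to 5. The fifth knockout library, the highest of its genotype, was below the second wild-type library, the lowest of its genotype, and the second knockout library was the lowest of all. The means were 291.4 ± 53.9 and 179.6 ± 48.5 CPM (SD, n = 5 each). *Mmp9* differed by -0.70 on the log2 scale (SE 0.15), and the 95% interval of the ratio ran from 0.497 to 0.764. Without *Ncr1*+/+ library 3 the log2 fold change was -0.62, which met the fold limit, but the adjusted p-value (edgeR) was not under 0.05. *Mmp9* was then not among the called genes. *Mmp9* had the widest spread in *Ncr1*gfp/gfp ILC1s of the 9 tested genes, with a coefficient of variation of 27.0% against 18.5% in *Ncr1*+/+ ILC1s, while counting error alone accounts for 1.498%.

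*Mmp9* is also a gene of neutrophils and macrophages, and markers of both were therefore set beside it, in CPM per kilobase of exon. *Mmp9* was at 76.96, 74.4, 112.7, 89.2 and 105.5 in *Ncr1*+/+ libraries 1 to 5 and at 48.3, 33.8, 68.9, 62.7 and 69.1 in *Ncr1*gfp/gfp libraries 1 to 5. The sum of 10 macrophage and monocyte markers was 10.9, 25.7, 23.3, 28.5 and 50.1 in *Ncr1*+/+ libraries 1 to 5 and 13.8, 7.50, 29.9, 33.4 and 21.9 in *Ncr1*gfp/gfp libraries 1 to 5. The sum was below *Mmp9* in each of the 10 libraries, overlapped between the genotypes, and was lowest in the knockout library in which *Mmp9* was lowest. Of these markers *Lyz2* reached the highest level in any library, 22.2 CPM. The sum of 12 neutrophil markers was between 0.0793 and 0.446 in *Ncr1*+/+ libraries. In *Ncr1*gfp/gfp libraries, where *Mmp9* was lower, it was 2.49, 0, 24.5, 1.05 and 2.24. The neutrophil marker *Ly6g* was at 0 in 9 of the 10 libraries, and *Retnlg* in all of them. Other markers of this list were detected. *Ncr1*gfp/gfp library 3 had *S100a9* at 6.88 CPM and *S100a8* at 3.07 CPM. *Csf3r* was highest in *Ncr1*gfp/gfp library 4, at 1.547 CPM, and among wild-type libraries in the fifth, at 1.415 CPM. The sort for NK1.1, CD49a and NKp46 or GFP is meant to leave out macrophages and neutrophils. The part of macrophage or neutrophil transcripts in the level of *Mmp9* was not tested.

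**Figure D3:**
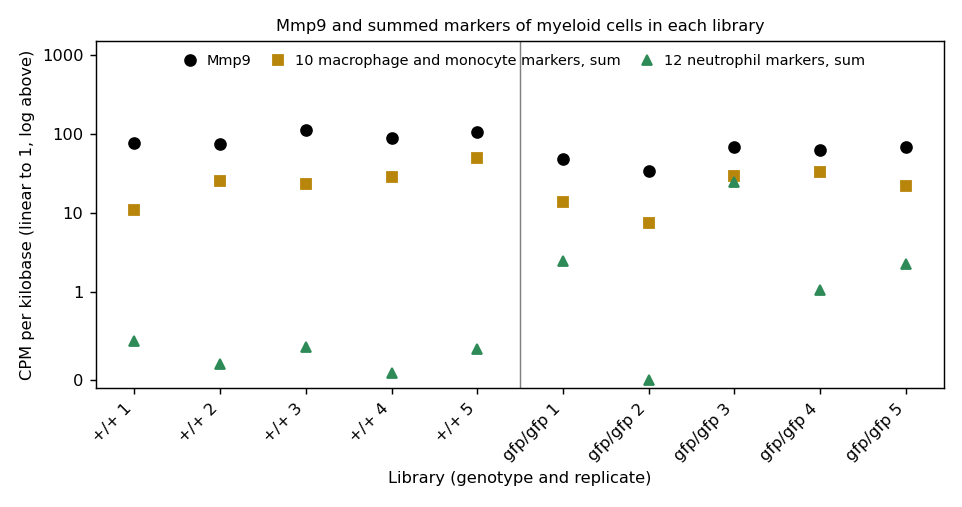
*Mmp9* and the summed macrophage and monocyte markers and neutrophil markers in each library, in CPM per kilobase of exon on an axis that is linear to 1 and logarithmic above. *Mmp9* is above both sums in every library, and the neutrophil sum stands highest in *Ncr1*gfp/gfp library 3, at 24.5.

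Within its family *Mmp9* made up nearly all transcripts, with 99.2 ± 0.446% of the summed level per kilobase of the matrix metalloprotease genes in *Ncr1*+/+ and 98.1 ± 1.12% in *Ncr1*gfp/gfp ILC1s (SD, n = 5 each). Of the other 20 genes, 6 had 0 counts in every library and 1, *Mmp17*, passed the filter, at 0.623 and 0.989 CPM. *Mmp8*, a collagenase of neutrophils, reached 1.85 CPM in *Ncr1*gfp/gfp library 3.

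Of the inhibitors, *Timp2* is found on chromosome 11 (118162375 to 118216725, minus strand). It had 53.3, 53.9, 43.65, 49.7 and 51.5 CPM in *Ncr1*+/+ libraries 1 to 5 and 43.75, 50.9, 51.0, 40.03 and 51.9 CPM in *Ncr1*gfp/gfp libraries 1 to 5. The ranges overlapped, with means of 50.4 ± 4.13 and 47.5 ± 5.32 CPM (SD, n = 5 each), and the 95% interval of the ratio was 0.825 to 1.08. *Cep295nl* lies on the same strand within *Timp2*, where reads may be counted for either gene or left out. *Timp1*, on chromosome X (20447292 to 20451863, plus strand), had 2 counts in *Ncr1*gfp/gfp library 1 and 0 counts in the other 9 libraries. At these depths 3 counts, the upper limit that a count of 0 allows, correspond to between 0.132 and 0.19 CPM, counting error only. *Timp1* was therefore near or below the limit of detection in both genotypes and no fold change is given. *Timp4* had 0 counts in every library, *Timp3* did not exceed 0.163 CPM, and *Reck*, which encodes a membrane-anchored inhibitor, had 9.20 and 8.61 CPM in *Ncr1*+/+ and *Ncr1*gfp/gfp ILC1s.

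*Sdc4* is found on chromosome 2 (164249747 to 164268688, minus strand). Its CPM was 23.8, 18.5, 23.1, 18.6 and 19.3 in *Ncr1*+/+ libraries 1 to 5 and 10.35, 8.36, 13.1, 12.97 and 13.9 in *Ncr1*gfp/gfp libraries 1 to 5. Every knockout library was below every wild-type library, and the second knockout library was the lowest. These values rest on 354 to 462 counts per *Ncr1*+/+ library and 163 to 248 counts per *Ncr1*gfp/gfp library, and counting error alone accounts for a coefficient of variation of 5.70%. The means were 20.7 ± 2.59 and 11.7 ± 2.31 CPM (SD, n = 5 each). This was a log2 fold change of -0.82 (SE 0.15), the lowest of the 9 tested genes, and the 95% interval of the ratio ran from 0.457 to 0.704. With single libraries left out, the log2 fold change of *Sdc4* was between -0.88 and -0.71.

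Among the other syndecans and glypicans, the cell-surface proteoglycans with heparan sulfate, *Gpc1* alone passed the test, of 3 that passed the filter. Its CPM was 257.4, 244, 255.5, 258.3 and 241.6 in *Ncr1*+/+ libraries 1 to 5 and 171.7, 158.6, 213.8, 215.7 and 222.3 in *Ncr1*gfp/gfp libraries 1 to 5. All knockout libraries were below all wild-type libraries, and the first and second knockout libraries were well below the other 3. The log2 fold change of *Gpc1* was -0.36 (edgeR, SE 0.08, adjusted p = 0.0233), which did not pass the fold threshold. The adjusted p-value of *Gpc1* rose to between 0.0513 and 0.0642 (edgeR) when *Ncr1*gfp/gfp library 1 or 2 or *Ncr1*+/+ library 1, 3 or 4 was left out. *Sdc3* had 4.90 ± 2.05 and 2.91 ± 1.92 CPM in *Ncr1*+/+ and *Ncr1*gfp/gfp ILC1s (SD, n = 5 each), and *Sdc1* and *Sdc2* did not exceed 0.49 CPM in any library. *Sdc4* made up 10.4 ± 1.07% of the summed level per kilobase of these genes in *Ncr1*+/+ and 7.71 ± 0.448% in *Ncr1*gfp/gfp ILC1s. Of 24 genes for the building and trimming of heparan sulfate, 18 passed the filter. An adjusted p-value under 0.05 was found for 0 of them in edgeR, DESeq2 and limma-voom, and an unadjusted one for 3 in edgeR. *Sulf2*, which encodes a sulfatase that removes sulfate groups from the chains, had 736 ± 56.3 and 739.9 ± 45.04 CPM (SD, n = 5 each).

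Of 9 genes whose products bind or act with syndecan-4, all passed the filter, and *Prkca* alone had an adjusted p-value under 0.05. *Prkca* encodes protein kinase C alpha, which binds the cytoplasmic part of syndecan-4. Its CPM was 103.7, 113.5, 140.9, 109.6 and 123.3 in *Ncr1*+/+ libraries 1 to 5 and 195.6, 166, 151.1, 148.2 and 145.9 in *Ncr1*gfp/gfp libraries 1 to 5. *Prkca* was thus higher in every knockout library, opposite to *Sdc4*, by 0.45 on the log2 scale (edgeR, SE 0.09, adjusted p = 0.00884), which did not pass the fold threshold.

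Compared per kilobase of exon, *Mmp9* had the highest level of the 10 genes in *Ncr1*+/+ ILC1s, at 91.8 ± 17.0 CPM per kilobase (SD, n = 5). It was followed by *Adam19*, *Furin* and *Adam10*, at 58.7 ± 2.31, 54.2 ± 8.80 and 53.6 ± 4.48, which overlapped from neighbour to neighbour. *Adam8* and *Adam17* were at 35.6 ± 5.76 and 26.6 ± 1.45, *Pcsk7* at 19.0 ± 1.20, *Timp2* at 13.9 ± 1.14 and *Sdc4* at 8.40 ± 1.05 CPM per kilobase. *Mmp9* was at the 95.6th percentile of all tested genes by this measure and *Sdc4* at the 41.8th. In *Ncr1*gfp/gfp ILC1s *Adam19*, at 63.4 ± 7.39, and *Mmp9*, at 56.6 ± 15.3 CPM per kilobase, overlapped, and so did *Mmp9* and *Adam10*, at 52.9 ± 3.12. *Furin*, at 37.2 ± 4.06, then overlapped *Adam8*, at 33.7 ± 5.43, and *Sdc4* was at 4.77 ± 0.938 CPM per kilobase.

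**Figure D4:**
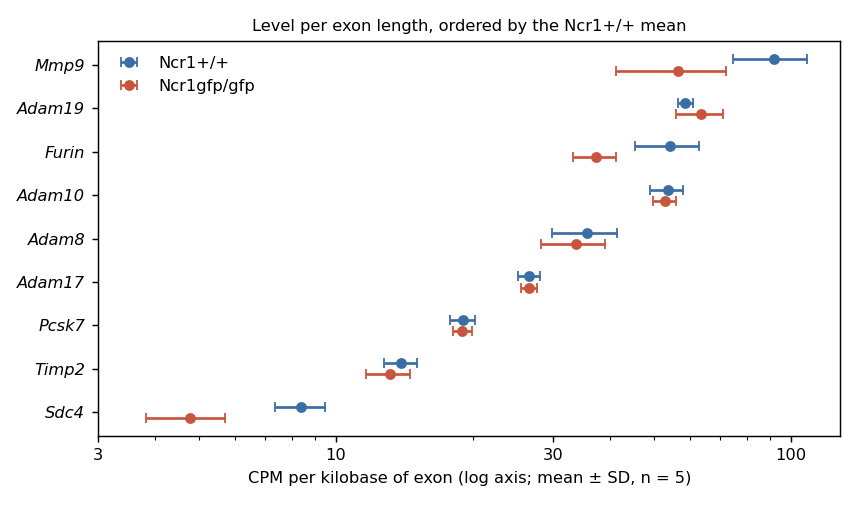
Level of the 9 tested genes in CPM per kilobase of exon on a logarithmic axis, as the mean and SD of 5 *Ncr1*+/+ and 5 *Ncr1*gfp/gfp libraries. *Timp1* is not drawn. *Mmp9* stands highest in *Ncr1*+/+ ILC1s, at 91.8, and *Sdc4* lowest of the tested genes in both genotypes, at 8.40 and 4.77.

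The genes whose log2 CPM followed that of *Furin*, *Mmp9* or *Sdc4* most closely over the 10 libraries were sought, by the root mean square difference of values centred on each gene's mean. For *Furin* they were *Cdon*, *Sema6d* and *Pim2*, with differences of 0.133, 0.146 and 0.147 on the log2 scale, where *Furin* itself had an SD of 0.317. *Sdc4* was followed by *Smox*, *Lrp5* and *Pde2a*, with differences of 0.109, 0.145 and 0.162 against its own SD of 0.469. The genes nearest to *Mmp9* were *Tnfrsf26*, *Lrp5* and *Cd93*, at 0.194, 0.197 and 0.199 against an SD of 0.488. *Lrp5* was near to both *Sdc4* and *Mmp9*. All but *Sema6d* and *Cd93* were among the called genes, and the measure includes the difference between the genotypes.

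Genes for proteins that these proteases process were examined next, as part of all the lists of related genes. Of 146 related genes, the 10 genes left out, 78 passed the filter. Of these, 3 were lower and 2 higher at an adjusted p-value under 0.05, where 1.35% of all tested genes passed this threshold in either direction, and 2 lower and 1 higher were called. The log2 fold change was below 0 in 51 of the 78, with a median of -0.07. Over all tested genes it was below 0 in 5648 of 11463, with a median of 0.0027. The lists were chosen with earlier results of these data known, so that nothing is read from these counts. Of the 17 furin substrates listed, 12 passed the filter and 1 was called lower. This was *Igf1r*, the receptor of insulin-like growth factor 1, with 17.3, 26.5, 25.85, 19.8 and 16.8 CPM in *Ncr1*+/+ libraries 1 to 5 and 9.91, 5.39, 9.16, 13.2 and 15.0 CPM in *Ncr1*gfp/gfp libraries 1 to 5. The highest knockout library was below the lowest wild-type library by a small margin, and *Igf1r* differed by -1.02 on the log2 scale (edgeR, SE 0.21, adjusted p = 0.0139). Without *Ncr1*+/+ library 3 the adjusted p of *Igf1r* was 0.0522 (edgeR).

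Of 22 genes for surface proteins that are shed, 19 passed the filter, and 1 was called lower and 1 higher. An adjusted p-value under 0.05 was found for 2 in edgeR, 2 in limma-voom and 3 in DESeq2. An unadjusted one was found for 6 in edgeR. *Il2ra*, the alpha chain of the interleukin-2 receptor, was called lower, with a log2 fold change of -1.24 (adjusted p = 7.08e-06, edgeR), and *Cdh1*, which encodes E-cadherin, was called higher, with a log2 fold change of 0.95 (adjusted p = 2.35e-06, edgeR). *Cd44*, chosen after its values were seen because its libraries did not overlap, had 565.2 ± 25.7 CPM in *Ncr1*+/+ and 485.6 ± 37.9 CPM in *Ncr1*gfp/gfp ILC1s (SD, n = 5 each). *Cd44* differed by -0.22 on the log2 scale, with an adjusted p of 0.0527 in edgeR.

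**Figure D5:**
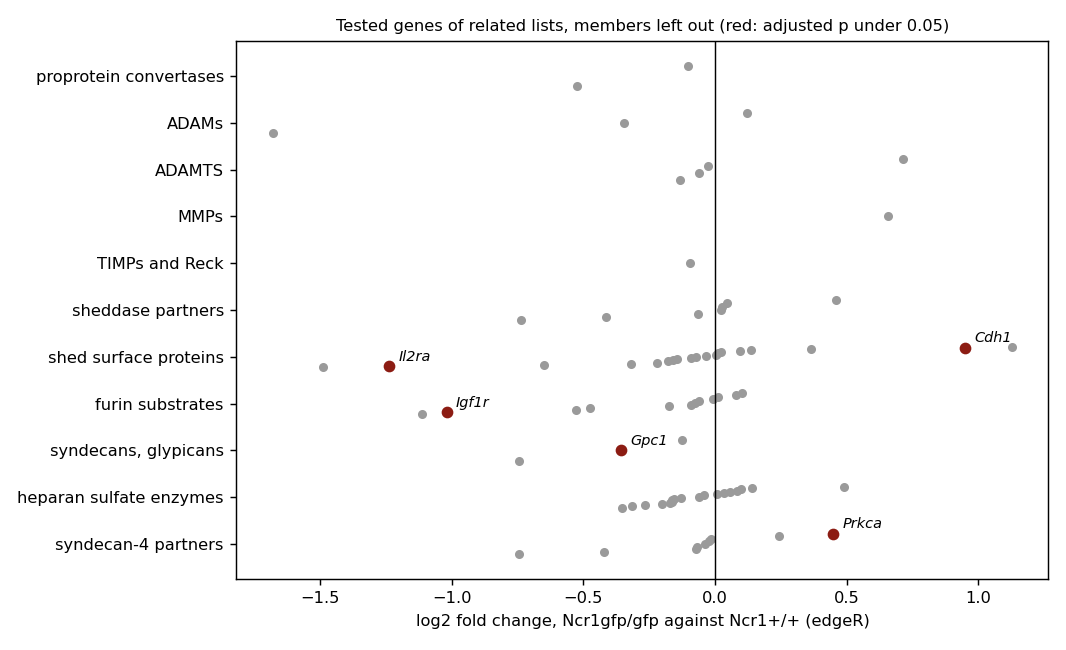
Log2 fold changes of the tested genes of each list of related genes in *Ncr1*gfp/gfp against *Ncr1*+/+ ILC1s, 1 point per gene. The 5 genes past an adjusted p-value of 0.05 are *Il2ra*, *Igf1r* and *Gpc1*, which are lower, and *Cdh1* and *Prkca*, which are higher.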

How the data were processed

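Liver ILC1s were sorted, and RNA-seq libraries were prepared by SMART-Seq v4 from 2 ng of total RNA and read from 1 end for 51 cycles. The authors trimmed the reads with Trimmomatic and FASTP, mapped them with STAR to mm10 and counted them with HTSeq. The deposited values are whole-number read counts per gene, not normalized, beside other columns with each gene's position and exon length. The positions are not those of GRCm38, since 344 of 23924 matched names share a chromosome and start with it. With its default settings HTSeq takes only reads of the gene's own strand and drops multi-mapped ones.

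The counts of all genes were filtered with filterByExpr (11463 of 24564 kept), normalized by TMM and tested with edgeR 4.0.16 in R 4.3.3 by the quasi-likelihood test, with genotype as the only term and Benjamini-Hochberg adjustment. The thresholds followed the study's methods. DESeq2 1.42.0, limma 3.58.1, other filters and normalizations, a replicate block and leaving out each library were alternatives. The script was tested on simulated counts. The libraries of a genotype differed by more than sampling noise, and each was counted as a replicate. Depth was 15796253 to 22623133 counts per library. Intervals are at the 95% level. The genes described, the lists of related genes and the markers were chosen with earlier results of these data known. Named were the 10 genes, in each related list those with adjusted p-values under 0.05 and otherwise up to 3 of the highest level per kilobase, and the 3 genes nearest in profile. The planned sequence motifs were not analysed here. Other cell lists summed to at most 5.99 (B cells), 3.03 (stellate cells) and 5.98 (platelets) CPM per library. The sums were between 55.4 and 97.5 CPM for NK cells, 112.5 and 151 CPM for endothelium and 123 and 217.3 CPM for hepatocytes. For NK cells *Itga2* alone made up most of the sum, at 31.7 to 59.9 CPM, whereas *Eomes* had 5.06 to 17.65 CPM. Most of the endothelial sum came from *Pecam1* alone, at 111.5 to 149.2 CPM. Most of the hepatocyte sum came from *Trf* alone, at 119.7 to 146.2 CPM.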

Additional observations from a re-analysis of the deposited data

Results flagged for a closer look

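In 5 of 50 groups of 5 libraries examined, the highest library stood apart from the other 4 by Dixon's criterion, where chance alone gives about 2.5. *Adam19* was at 422 CPM in *Ncr1*+/+ library 4, with the next at 391.8. *Cdh1* was at 63.7 CPM in the same library, with the next at 49.9. The summed CPM of neutrophil markers was 16.2 in *Ncr1*gfp/gfp library 3, with the next at 2.617. The summed CPM of hepatocyte markers was 217.3 in *Ncr1*gfp/gfp library 3 and 188.7 in *Ncr1*+/+ library 1, with the next at 146.3 in both genotypes. With both of these libraries left out, a choice made after the data were seen, the log2 fold changes of *Furin*, *Mmp9* and *Sdc4* were -0.55, -0.84 and -0.81, a description, since these genes were chosen on the same contrast.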

How the results depend on the processing

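Under 8 alternatives of test, normalization, filter, threshold and block, the log2 fold changes of *Furin*, *Mmp9* and *Sdc4* were -0.54 to -0.53, -0.73 to -0.66 and -0.83 to -0.73. Their selection on this contrast makes these ranges a description and no sign of stability. Over all genes, 84 were called, 61 lower and 23 higher. DESeq2 called 128, 39 of them higher. Without a filter on low counts 131 were called, 95 lower and 36 higher. With no fold threshold 155 passed, 65 of them higher, and 5 related genes passed instead of 3. Leaving out single libraries gave between 60 and 98 called genes, and between 40 and 71 were called lower, fewest in both counts without *Ncr1*+/+ library 1. *Furin* was not among them without *Ncr1*gfp/gfp library 3 or *Ncr1*+/+ library 4, nor *Mmp9* without *Ncr1*+/+ library 3. The replicate block called 87 genes, 76 of them shared with the 84. Over all tested genes, libraries with the same number did not deviate together (r between -0.0173 and 0.0442), so that no pairing by number was seen there. For *Mmp9* the block lowered the SE of the log2 fold change from 0.148 to 0.0776. The SE fell by less for *Furin*, *Sdc4*, *Adam10* and *Adam19*. It rose for *Pcsk7*, *Adam8*, *Adam17* and *Timp2*. Whether the numbers pair the libraries is not known. With the libraries highest in hepatocyte markers left out, 60 genes were called. Depth limits what can be said of *Timp1*.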
